A study of Mus musculus with 6 samples.

Results

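The genes described here encode the chains of the integrins and of the laminins, the receptors and the main adhesive protein of the basement membrane on which pancreatic acini rest. They were followed in bulk RNA-seq of mouse pancreatic acini, the clusters of enzyme-secreting cells of the exocrine pancreas, after 3 days of culture in an acinar-to-ductal metaplasia (ADM) assay. Protein-coding genes were taken by symbol alone, as Itga, Itgb or Lama, Lamb and Lamc followed by a number, with Itgav and Itga2b, and no measured value was used. This gave 32 of the 56953 genes of the count table, of which 13 encode integrin alpha chains, 8 integrin beta chains and 11 laminin chains. Of these, 26 had enough counts to be tested (10 alpha, 7 beta and 9 laminin chains), among 14738 genes tested in all.

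Each of the 3 groups had 2 libraries. WT acini came from mice with an intact Dkk3 gene, which encodes the secreted glycoprotein DKK3. DD acini came from Dkk3 knockout mice, in which, per the study, exon 2 with the signal for secretion was replaced. DD + rDKK3 acini were from the same knockout and received commercial recombinant DKK3 in the culture. All groups shared the culture itself, growth-factor-reduced Matrigel under Waymouth's medium with serum, trypsin inhibitor and dexamethasone. Matrigel is an extract rich in laminin, so in every group the cells were surrounded by laminin protein that their own transcripts did not supply. The labelled ages were 10 and 11 weeks in WT, 12 and 13 weeks in DD, and 14 and 15 weeks in DD + rDKK3. They rise by 1 week from sample to sample, and whether they were recorded for each animal is not given in the sources used here. As labelled, age and group cannot be told apart. WT 2 is labelled female and the other libraries male. The sample titles number the untreated and the treated null cultures alike, as DD1 and DD2. The labels do not say which libraries came from separate animals, so the p-values measure only the spread between these samples, which may be technical.

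An integrin is a pair of one alpha and one beta chain that spans the membrane, grips matrix proteins outside the cell and ties to actin or keratin filaments within. The pairing decides the ligand. Itgb1 pairs with most alpha chains, Itgb4 only with Itga6 in the hemidesmosome of epithelial cells, and Itgav with Itgb3, Itgb5, Itgb6 or Itgb8. A laminin is a cross-shaped trimer of one alpha, one beta and one gamma chain, and the alpha chain carries the main integrin-binding site. Lama3 and Lamb3 are chains of the laminin of epithelial anchorage, Lama5 with Lamb1 or Lamb2 and Lamc1 builds the common epithelial basement membrane laminins, and Lama4 and Lama2 occur chiefly around vessels, muscle and mesenchyme.

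Library totals ran from 12018473 to 19750401 counts, and levels are given as CPM (counts scaled to a common library depth) after TMM scaling (trimmed mean of M values). The 6 acinar markers were detected in every library, with a summed level of 14954 to 25425 CPM. Dkk3 itself was read 10 times in WT 1 and 1 time in WT 2, against 11 and 9 counts in the DD pair and 5 in each library given rDKK3. A count over the whole gene can include exons that the null allele keeps, so it does not check the labels. Before any group is compared, 3 libraries must be set apart. The 10 fibroblast markers summed to 114 and 41.0 CPM in WT and to 62.4 in DD 1 and 151 in DD + rDKK3 1, but to 754 in DD 2 and 849 in DD + rDKK3 2. On the first principal component of all genes (42.3% of the variance) DD 2 and DD + rDKK3 2 lay at 41.5 and 42.0, and the other libraries between -37.3 and -7.78. On the second component (32.3%) WT 1 lay at 52.8 and the others between -29.9 and 12.2. WT 1 had the smallest library and a TMM factor of 0.848, and every comparison with WT rests on it and 1 other library. In bulk RNA, fewer cells of a type and less RNA per cell cannot be told apart.

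Levels of different genes were compared per exon length, as CPM per kilobase of exon. On this scale Itga3, the alpha chain of a laminin receptor of epithelia, led the alpha chains with a mean of 43.1% of their summed level and a range of 33.9% to 50.3% over the 6 libraries. Itga6, the alpha chain that enters hemidesmosomes, followed with 20.7% (15.9% to 22.9%). The fibronectin receptor chain Itga5 had 15.3%, but its range of 7.01% to 27.9% covered that of Itga6 above it and that of Itgav, the alpha chain of vitronectin and fibronectin receptors, below it at 13.9% (10.5% to 17.4%), so these neighbours did not differ beyond their spread. The collagen receptor chain Itga2 had 2.89% and no other alpha chain had more than 1.43% on average.

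Among the beta chains, Itgb1 held 68.0% (64.0% to 73.5%) and was above every other member in all libraries, at 72.8 to 83.1 CPM per kilobase of exon. Itgb4 held 14.8% (10.7% to 18.1%) and Itgb5 10.8% (8.85% to 12.4%), and the ranges of these neighbours overlapped. The leukocyte chain Itgb2 and the epithelial partner of Itgav, Itgb6, held 2.32% and 2.09%. Itgb2 has no alpha partner among the 32 genes. Its partners carry letters (Itgal, Itgam, Itgax, Itgad), and of the 5 alpha chains named by letters 2 had enough counts to be tested.

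The laminin chains were shared more evenly. Lamb3 held 24.9% (20.8% to 29.7%), Lama5 22.4% (17.5% to 25.97%) and Lamc1 16.6% (11.7% to 19.3%), each range overlapping the next. Lamb1 and Lamb2 followed with 7.06% and 4.996%. The exception was Lama3, the alpha chain that joins Lamb3, which held 0.178% (0.110% to 0.268%). It had 8 and 13 counts in the WT pair, 34 and 17 in the DD pair and 16 and 13 in the pair given rDKK3. Per length, Lamb3 exceeded Lama3 by 95.8 to 234 times in the 6 libraries. Lama5, a laminin alpha chain of like length (11448 bases of exon against 12886) and exon number (79 against 77), exceeded Lama3 by 78.5 to 199 times. Thus Lamb3 had the highest mean level of the laminin chains, and the alpha chain that it joins was near the limit of what was tested.

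**Figure D1:**
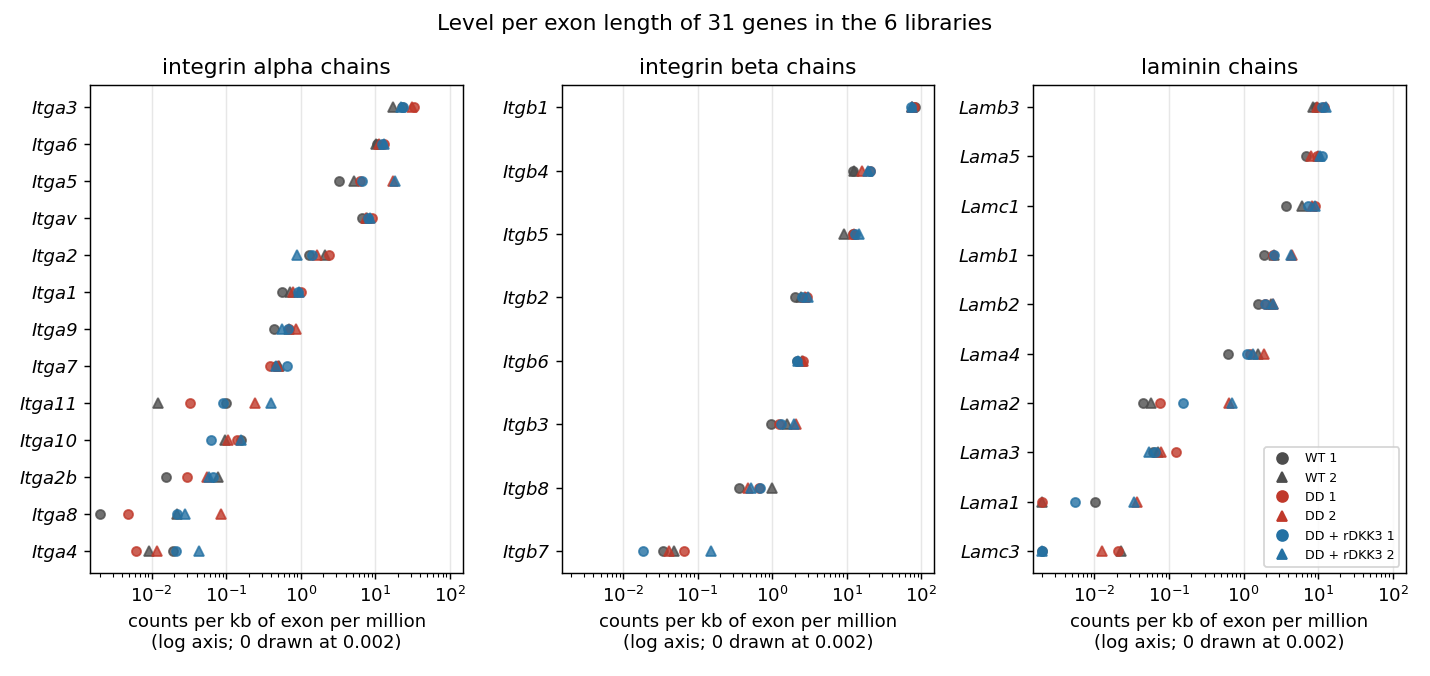
Level of 31 of the genes in each library, in CPM per kilobase of exon on a log axis, with genes ordered by their mean within integrin alpha, integrin beta and laminin chains. Circles are replicate 1 and triangles replicate 2. Itgb1 lies at 72.8 to 83.1 in every library, and Lama3 lies far to the left of Lamb3.

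The 6 genes under the filter had at most 14 counts in any library. They were Itga2b (the platelet chain), Itga4 and Itgb7 (leukocyte chains), Itga8, Lama1 and Lamc3. Itga8, found on mesenchymal cells, had 14 counts in DD 2 and 0 to 5 elsewhere, and Lama1 had 6 counts in both DD 2 and DD + rDKK3 2 and 0 or 1 elsewhere. Lamc3 had 0 counts in WT 1 and in both DD + rDKK3 libraries, where 0 counts allow a level of up to 0.294, 0.158 and 0.161 CPM by a floor of 3 counts, which covers counting error only.

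Whether loss of DKK3 went with other levels of these genes was addressed by DD against WT. No member was called by edgeR's quasi-likelihood test at an adjusted p under 0.05, where 0.0407% of all genes tested were called in either direction. DESeq2 and limma-voom also called 0 members (0.522% and 0.0543% of all genes). With no filter on low counts edgeR called 4 (1.99% of all genes). Without adjustment, 6 of the 26 members were higher in DD at p under 0.05 and 0 were lower, against 4.27% of all genes higher and 3.99% lower. Members with such a p numbered 3 without DD 2 and DD + rDKK3 2, and 5 to 7 with any 1 library left out. Both DD libraries lay above both WT libraries for 12 members (18.1% of all genes) and below them for 0 (19.7% of all genes). The log2 fold change was positive for 22 of 26 members, with a median of 0.36, against 51.7% of all genes and a median of 0.016. With library size alone as the scaling, which moved the median of all genes to 0.22, it was positive for 25 members, and 10 had an unadjusted p under 0.05. All 9 laminin chains tested had a positive value (median 0.47), as did 8 of 10 alpha chains (0.34) and 5 of 7 beta chains (0.19).

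That direction moved with the length of the genes. Over all genes tested, the median log2 fold change of DD against WT went from -0.18 in the shortest of 5 equal classes of exon length through -0.066, 0.018 and 0.093 to 0.18 in the longest class, where 69.8% of genes had a positive value. Of the 26 members, 21 were in the 2 longest classes. After each gene's length class median was subtracted, an alternative added after the data were seen, the members' median was 0.27. Without DD 2 and DD + rDKK3 2 the unsubtracted median was 0.32. The part of length in the result for any single member was not tested.

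**Figure D2:**
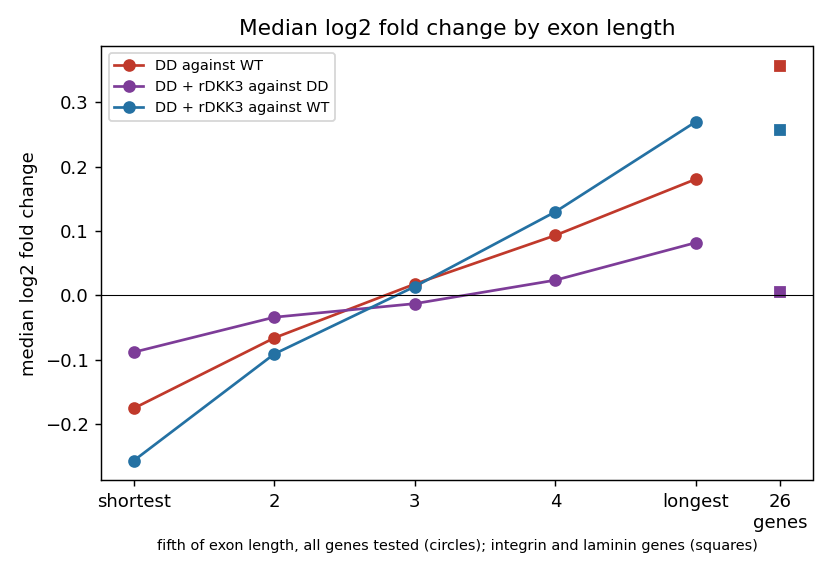
Median log2 fold change of all genes tested in each of 5 classes of exon length (circles, joined by lines) for the 3 comparisons, and the median of the 26 integrin and laminin genes tested (squares). In each comparison the line climbs from the shortest to the longest class, and the square of DD against WT (0.36) lies above the longest class (0.18).

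Laminin-binding integrins came first. Itga3 (ENSMUSG00000001507.17, chr11:94935300-94967627 in GRCm39, minus strand) stood at 121 and 91.8 CPM in WT libraries, 178 and 166 in DD libraries and 125 and 119 in DD + rDKK3 libraries. Both DD libraries were above the other 4, and those with rDKK3 lay on either side of the upper WT library. The fold of DD over WT was 1.62, a log2 fold change of 0.70 ± 0.18 (SE, edgeR adjusted p = 0.586, unadjusted 0.00516). DD + rDKK3 against DD gave -0.49 ± 0.18 (edgeR adjusted p = 1, unadjusted 0.0260), and DD + rDKK3 against WT gave 0.20 ± 0.18 (edgeR adjusted p = 0.558). The first and second comparisons share the DD libraries, so their opposite signs are not independent. Without WT 2 the first value was 0.52 and without WT 1 it was 0.92. The 4 mesothelial markers, all detected, summed to 8.54 and 8.42 CPM in WT, 14.7 and 34.65 in DD and 12.6 and 13.8 with rDKK3, so both DD libraries were again the highest. Nearly all of this sum was 1 gene, Msln, at 14.2 and 32.6 CPM in DD. Upk3b and Lrrn4 had too few counts to be tested. Wt1 was at 0.236 CPM in DD 1, below its 0.687 in WT 1. The 6 ductal markers, all detected, summed to 2092 and 1551 CPM in WT, 1431 and 2313 in DD and 1334 and 1487 with rDKK3, and 1 of them, the keratin gene Krt7, was lower with rDKK3 than in DD by 0.50 ± 0.15 on the log2 scale (edgeR adjusted p = 1). The part of these markers in the result for Itga3 was not tested.

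The regulatory sequence before the start of Itga3 is shown because it was the member with the smallest p in DD against WT. RefSeq promoters, from 250 bases before to 50 after a start, were given for 21 of the 32 genes on the older build GRCm38.p6, whose coordinates do not match those of the count table. Itga3 has 2 starts, at chr11:95076665-95076964 and chr11:95069149-95069448 on the minus strand. Each was searched on both strands for TGAGTCA, the site of AP-1 (the Fos and Jun proteins), with TGACTCA as its reverse complement. Neither holds it. Among the 24 promoters of members, 1 did, the only entry for Itga9 (chr9:118711442-118711741, plus strand), where the match in capitals begins at base 39 after the start. In GRCm39 the gene starts at chr9:118435758. The entry lies further from that start than the entries of Itga11 and Lamb2, on the same chromosome, lie from theirs. It may therefore be a start inside the gene, and the main start of Itga9 may not have been searched. Of all 32851 promoters in the table, 5.2% held the site. A match is a description of letters and not of binding.
Itga3, first start: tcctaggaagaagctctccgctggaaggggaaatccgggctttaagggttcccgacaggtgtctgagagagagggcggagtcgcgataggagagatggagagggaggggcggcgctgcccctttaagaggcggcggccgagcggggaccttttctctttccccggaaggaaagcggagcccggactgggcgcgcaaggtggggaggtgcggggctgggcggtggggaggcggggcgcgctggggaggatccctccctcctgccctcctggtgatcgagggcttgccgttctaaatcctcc
Itga3, second start: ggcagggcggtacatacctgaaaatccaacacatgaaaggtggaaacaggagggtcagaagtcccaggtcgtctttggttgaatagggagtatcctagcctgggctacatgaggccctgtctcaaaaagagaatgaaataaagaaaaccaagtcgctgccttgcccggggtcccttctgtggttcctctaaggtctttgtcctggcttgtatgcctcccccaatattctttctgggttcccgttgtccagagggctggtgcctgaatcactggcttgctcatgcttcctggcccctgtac
Itga9: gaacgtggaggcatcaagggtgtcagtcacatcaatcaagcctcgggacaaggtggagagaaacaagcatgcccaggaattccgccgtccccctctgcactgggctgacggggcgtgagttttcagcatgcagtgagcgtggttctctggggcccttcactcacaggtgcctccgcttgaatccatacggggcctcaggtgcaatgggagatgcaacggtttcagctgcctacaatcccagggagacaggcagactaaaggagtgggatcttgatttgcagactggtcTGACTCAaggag

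Itgb4 (ENSMUSG00000020758.16, chr11:115865535-115899238, plus strand), whose long cytoplasmic tail binds plectin in hemidesmosomes, had 84.2 and 88.0 CPM in WT, against 142 and 110 in DD and 141 and 135 once rDKK3 was added. All 4 Dkk3-null libraries lay above both WT libraries. DD against WT gave a log2 fold change of 0.55 ± 0.17 (SE, edgeR adjusted p = 0.586), and DD + rDKK3 against WT gave 0.68 ± 0.17 (edgeR adjusted p = 0.322, the smallest unadjusted p of any member there, 0.00484). DESeq2 called the latter (adjusted p = 0.0297), among 1.09% of the genes for which it gave an adjusted p. DD + rDKK3 against DD differed by 0.13 ± 0.17.

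Itga6, the only partner of Itgb4, was at 85.0 and 82.7 CPM in the WT pair, 106 and 91.4 in the DD pair and 101 and 107 in the pair given rDKK3. The groups with the null allele again did not overlap WT, but the fold of DD over WT was 1.17. The level per length of Itga6 relative to Itgb4 was 0.866 and 0.806 in WT libraries, 0.636 and 0.713 in DD libraries and 0.612 and 0.678 in DD + rDKK3 libraries, lower in all 4 null libraries. Itga3 relative to Itga6 was 2.16 and 1.68 in WT, against 2.56 and 2.76 in DD and 1.88 and 1.70 once rDKK3 was added, so both DD libraries were above the other 4. The common partner Itgb1 was at 464 and 419 CPM in the WT pair, 453 and 418 in the DD pair and 407 and 416 in the pair given rDKK3. Its log2 fold change of DD against WT was -0.02 ± 0.16.

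Lamb3 (ENSMUSG00000026639.19, chr1:192890007-193026186, plus strand), the beta chain that joins Lama3, had 63.0 and 57.9 CPM in WT, against 80.6 and 64.7 in DD and 76.5 and 85.5 once rDKK3 was added. The DD + rDKK3 libraries lay above both WT libraries and overlapped those of DD. DD + rDKK3 against WT gave 0.42 ± 0.17 (edgeR adjusted p = 0.322, unadjusted 0.0369). The scarce Lama3 had 0.785 and 0.912 CPM in WT libraries, 1.61 and 0.998 in DD libraries and 0.844 and 0.698 in DD + rDKK3 libraries. Its DD + rDKK3 against DD value of -0.76 ± 0.44 (edgeR adjusted p = 1) rests on 34 and 17 counts against 16 and 13, and was -0.39 without DD 1.

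Lamc1 (ENSMUSG00000026478.15, chr1:153094668-153208532, minus strand), the gamma chain of most other laminins, had 39.3 and 64.7 CPM in WT, against 95.7 and 89.3 in DD and 78.6 and 96.4 once rDKK3 was added. All 4 null libraries lay above WT. The log2 fold change was 0.83 ± 0.24 in DD (SE, edgeR adjusted p = 0.586) and 0.75 ± 0.24 in DD + rDKK3 (edgeR adjusted p = 0.322), both against WT. The WT libraries differed by 1.65 times. Leaving out WT 1 gave 0.53 and 0.45, and leaving out WT 2 gave 1.24 and 1.16. Lama5, the alpha chain that joins Lamc1 in epithelia, had 79.7 and 116 CPM in the WT pair, 112 and 92.4 in the DD pair and 131 and 123 in the pair given rDKK3. It overlapped between DD and WT and was higher in both DD + rDKK3 libraries than in DD, by 0.31 ± 0.21 (edgeR adjusted p = 1), which became 0.18 without DD 2. Lama5 relative to Lamc1, per length, was 1.89 and 1.67 in WT libraries, 1.09 and 0.965 in DD libraries and 1.55 and 1.19 in DD + rDKK3 libraries. These 3 ranges did not overlap, but this is 1 of several chain ratios taken. How often the ranges of other gene pairs separate was not tested.

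**Figure D3:**
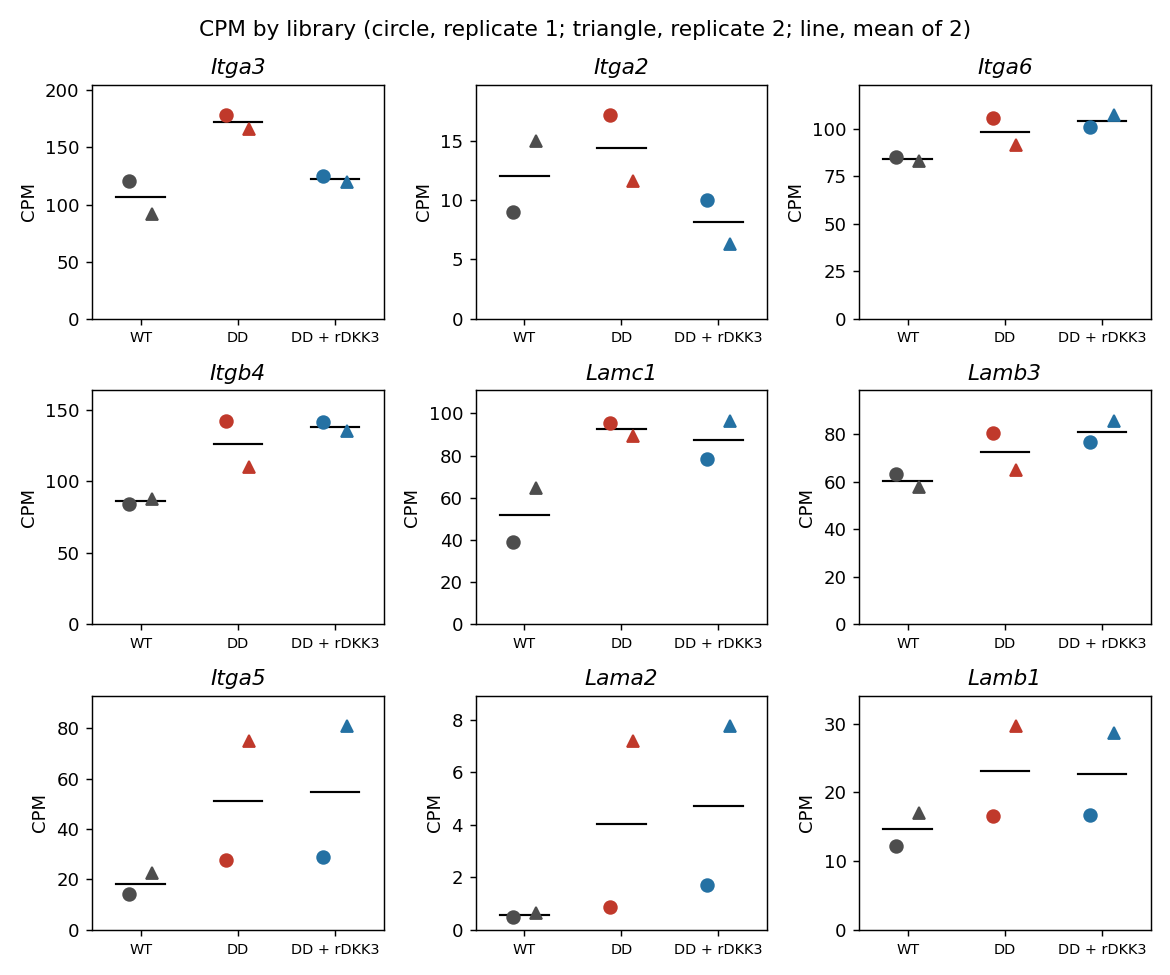
CPM of 9 members in each library, with circles for replicate 1, triangles for replicate 2 and a line at the mean of the 2. In the first row Itga3 is highest in both DD libraries and Itga6 higher in all 4 Dkk3-null libraries than in WT, in the second row Itgb4 and Lamc1 are also higher in all 4, and in the third row Itga5, Lama2 and Lamb1 are highest in DD 2 and DD + rDKK3 2.

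In a further set of members the 2 replicates of each null group lay far apart. Itga5 (ENSMUSG00000000555.9, chr15:103252713-103275190, minus strand), the fibronectin receptor chain, had 14.1 and 22.5 CPM in WT libraries, 27.6 in DD 1, 74.9 in DD 2, 28.8 in DD + rDKK3 1 and 80.7 in DD + rDKK3 2. All 4 null libraries lay above WT, yet the replicates differed by 2.71 times in DD and by 2.80 times in DD + rDKK3. Lama2 (ENSMUSG00000019899.18, chr10:26856032-27495754, minus strand), the laminin alpha chain of muscle and nerve, had 0.491 and 0.632 CPM in WT, against 0.851 and 7.16 in DD and 1.69 and 7.74 once rDKK3 was added. The collagen receptor chain Itga11, known from fibroblasts, had 0.589 and 0.0702 CPM in the WT pair, 0.189 and 1.41 in the DD pair and 0.528 and 2.36 in the pair given rDKK3.

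With Lamb1 (1.79 and 1.72 times) and Itgb3 (1.65 and 1.51 times), these were the 5 members that were over 1.5-fold higher in replicate 2 than in replicate 1 of both null groups, and 0 members were lower by that much in both. In 17 members the replicates of both null groups stayed within 1.5-fold. The share of all genes that passed these limits was not counted, so these counts are not set against a background. The summed fibroblast markers were also higher in replicate 2, by 12.1 times in DD and 5.61 times in DD + rDKK3, with all 10 detected. The 5 pericyte and smooth muscle markers, all detected, summed to 1.99 and 2.19 times as high, and 1.95 times in WT 2 over WT 1. Singly they moved unevenly, from 0.458 times (Myh11) to 4.69 times (Acta2) in DD. In DD + rDKK3 they ran from 1.09 times (Rgs5) to 53.0 times (Acta2, on 1 and 52 counts). The 3 platelet markers, of which Gp9 was at 0 in every library, were 10.8 and 2.69 times as high, but 0.110 times in WT 2 over WT 1. Their sum was nearly all Pf4 (45.5 of 45.6 CPM in DD 2). The 6 leukocyte markers summed to 1.19 and 1.26 times as high, mostly from Cd68, which moved by 0.913 and 0.980 times. Tyrobp, Adgre1, Csf1r, Ptprc and Fcgr1 were 1.48 to 11.2 times as high in DD and 1.82 to 4.18 times in DD + rDKK3. Of these, Ptprc and Fcgr1 had 2 counts each in DD 1. The 6 endothelial markers moved by 1.37 and 1.17 times. The part of these signals in the members was not tested.

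The comparisons of the members with large differences between replicates rest on DD 2 and DD + rDKK3 2. For Itga5 the log2 fold change against WT was 1.47 ± 0.58 in DD (SE, edgeR adjusted p = 0.586) and 1.57 ± 0.58 in DD + rDKK3 (edgeR adjusted p = 0.322). Without DD 2 the first was 0.58, and without DD + rDKK3 2 the second was 0.65. For Lama2 the values were 2.79 ± 1.13 (edgeR adjusted p = 0.586) and 3.03 ± 1.13 (edgeR adjusted p = 0.322), which became 0.58 without DD 2 and 1.57 without DD + rDKK3 2. With the replicate number as a block within the null libraries alone, a fit chosen after the data were seen, edgeR called Itga5 in DD against WT (1.30, adjusted p = 0.0206, among 0.441% of all genes), and Itga5 and Lama2 in DD + rDKK3 against WT (adjusted p = 0.0145 and 0.0177, among 0.522%). That block takes up the gap between replicates that both null groups share. These p-values therefore leave out the spread between null replicates, and the calls do not show a difference from WT beyond it. Itga3, Itgb4 and Lamc1 had values of 0.74, 0.72 and 0.88 for DD against WT when DD 2 and DD + rDKK3 2 were both left out. The DD group is then DD 1 alone, the higher DD library for each of these genes. Without DD 1 instead, Itgb4 was at 0.38.

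**Figure D4:**
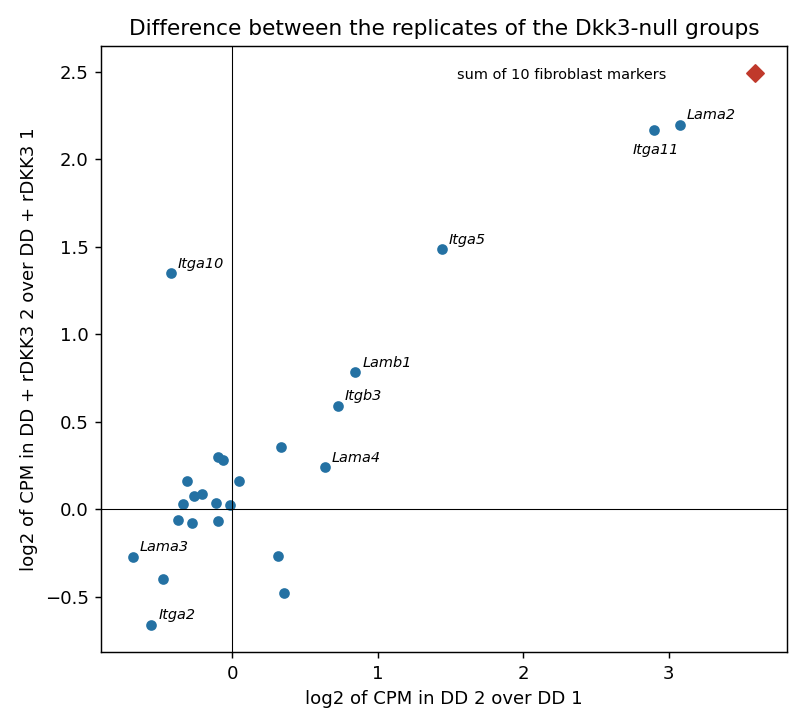
Each of 25 points is a member tested, placed by the log2 of its CPM in DD 2 over DD 1 (horizontal) and in DD + rDKK3 2 over DD + rDKK3 1 (vertical). The diamond is the sum of the 10 fibroblast markers. Lama2, Itga11, Itga5, Lamb1 and Itgb3 lie toward the diamond, and most members lie near 0 on both axes.

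Whether recombinant DKK3 went with other levels in null acini was addressed by DD + rDKK3 against DD. edgeR called 0 members and 0% of all genes tested, with DESeq2 calling 0 members and 5 genes (0.0775% of those with an adjusted p) and limma-voom 0 of either. Without adjustment, 3 members were lower at p under 0.05 (1.38% of all genes) and 0 were higher (0.597% of all genes). Without DD 1 or without DD + rDKK3 1, 1 member had such a p, and without DD + rDKK3 2 it was 0. The groups did not overlap for 7 members that were lower (14.4% of all genes) and 2 that were higher (15.1% of all genes), Itgb5 and Lama5. The members' median was 0.0047, and its sign depended on the processing. Those with an unadjusted p under 0.05 included Itga3, given above, and Itga2. Itga2 (ENSMUSG00000015533.10, chr13:114969617-115068636, minus strand), a collagen and laminin receptor chain of epithelia, had 9.03 and 14.9 CPM in WT libraries, 17.1 and 11.6 in DD libraries and 10.0 and 6.34 in DD + rDKK3 libraries. The DD + rDKK3 libraries were below those of DD and overlapped WT. The log2 fold change was -0.81 ± 0.33 (SE, edgeR adjusted p = 1), and -0.53 without DD 1 or without DD + rDKK3 2.

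DD + rDKK3 against WT asked whether null acini given the protein still differed from WT. edgeR and limma-voom called 0 members, against 0.0475% and 0.0204% of all genes. DESeq2 called 1 member, Itgb4, and 61 genes in all, which is 1.09% of the 5595 genes left by its own filter on low counts. With no filter edgeR called 5 members (2.97% of all genes). Without adjustment 6 members were higher (7.34% of all genes) and 0 lower (8.01%). Members with such a p fell to 1 without DD + rDKK3 2 and to 2 without DD 2 and DD + rDKK3 2, and were 4 without WT 1. Both DD + rDKK3 libraries lay above WT for 11 members (27.9% of all genes) and below for 1, Itgb1 (27.1% of all genes). The log2 fold change was positive for 20 of 26 members, with a median of 0.26 against 0.017 over all genes, 0.50 without WT 2, 0.19 without DD 2 and DD + rDKK3 2, and 0.091 after subtraction of the length class median, which went from -0.26 in the shortest class to 0.27 in the longest. Beside Itgb4, Lamc1, Itga5, Lama2 and Lamb3, the 6 included Itga1 (ENSMUSG00000042284.11, chr13:115089632-115238500, minus strand), a collagen receptor chain. It had 7.75 and 9.89 CPM in WT, against 13.7 and 10.8 in DD and 12.6 and 12.8 once rDKK3 was added, all 4 null libraries above WT, with a log2 fold change of 0.52 ± 0.21 (edgeR adjusted p = 0.322). Of its exon bases, 3.29% are shared with the predicted gene Gm49395.

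**Figure D5:**
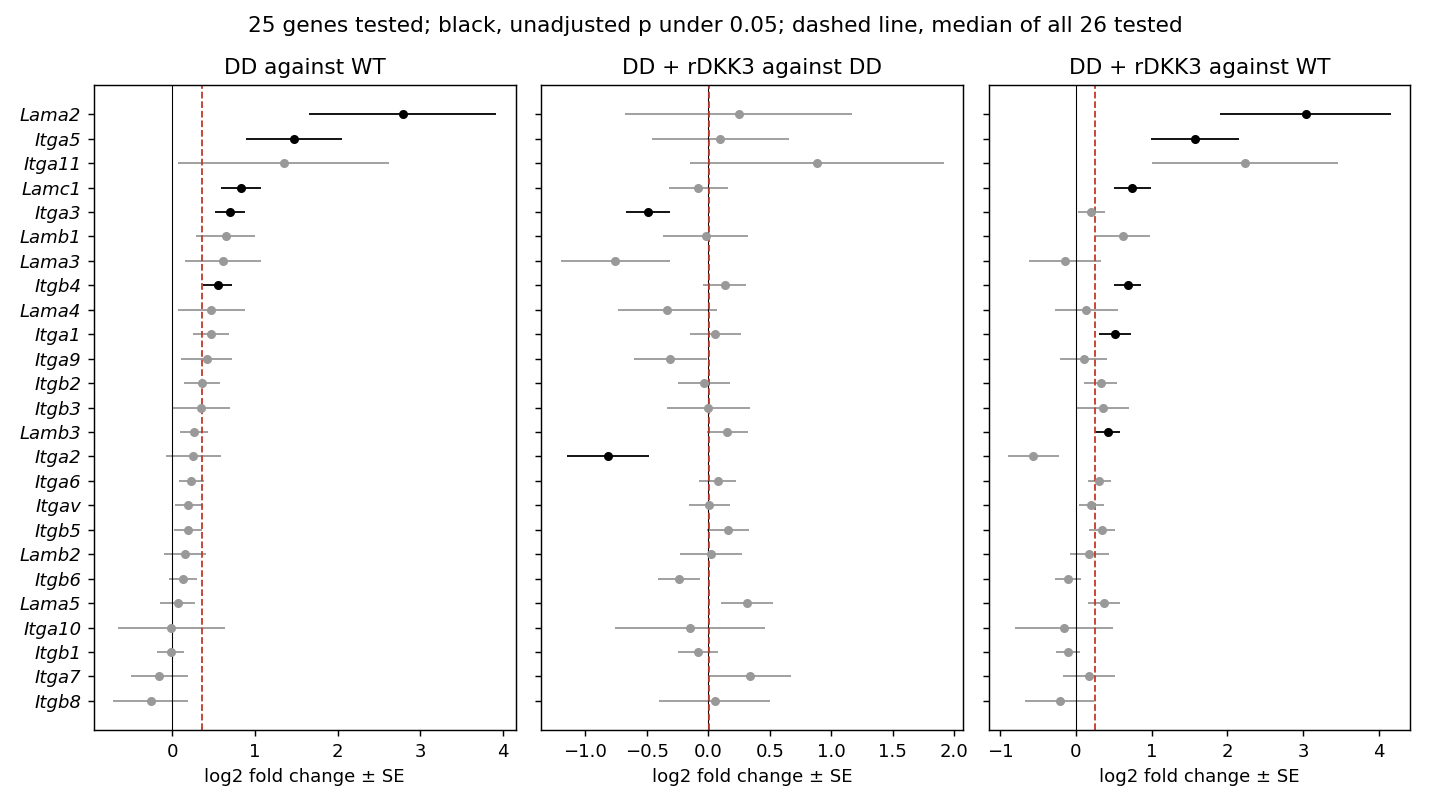
Log2 fold change with its SE of 25 of the members tested in the 3 comparisons, ordered by DD against WT, with black points at an unadjusted p under 0.05 and a dashed line at the median of all 26. The points of DD against WT lie mostly to the right of 0 (21 of 25), those of DD + rDKK3 against DD on both sides (14 and 11), and none had an adjusted p under 0.05.

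The remaining members are summarised by role. The partners of Itgav differed little between groups. Itgb5 was at 31.9 to 42.2 CPM in the WT pair, 41.5 and 42.8 in the DD pair and 44.5 and 49.8 in the pair given rDKK3. Itgb6, a chain of epithelia known to activate latent TGF-beta together with Itgav, was at 13.9 to 16.6 CPM in all libraries, and Itgav itself at 71.3 to 97.3 CPM. Itgb8 was at 3.04 and 8.63 CPM in WT, which spanned the 4 null libraries. The leukocyte chain Itgb2 was at 6.28 and 7.72 CPM in WT and 7.97 to 9.67 in the null libraries, above WT in all 4. The 6 leukocyte markers summed to 47.3 and 35.1 CPM in WT and 47.0 to 63.6 in the null libraries, with DD 1 below WT 1. Most of each sum was Cd68, at 29.5 to 42.2 CPM over all libraries. The part of these markers in the level of Itgb2 was not tested. Lama4, a vascular laminin chain, had 5.99 and 15.4 CPM in WT and 10.9 to 18.3 in the null libraries. Lamb2 (8.83 to 14.1 CPM), Itga9 (3.14 to 6.11), Itga7 (1.70 to 2.85) and Itga10 (0.317 to 0.806) overlapped between DD and WT. Itga10 shares 34.5% of its exon bases with the predicted gene Gm42957, so its counts are uncertain.

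Genes that work with these chains were taken from 4 lists. Of 20 cytoplasmic partners, all tested, 0 were called in any comparison, and 16 had a positive log2 fold change in DD against WT (median 0.28). Talin (Tln1), which switches integrins to their active state, had 46.7 and 62.0 CPM in WT libraries, 85.5 and 82.3 in DD libraries and 85.8 and 93.8 in DD + rDKK3 libraries. All 4 null libraries were above WT, by 0.62 ± 0.18 in DD (edgeR adjusted p = 0.586) and 0.72 ± 0.18 in DD + rDKK3 (edgeR adjusted p = 0.322). Parva, an adaptor that binds integrin-linked kinase, had 50.7 and 51.1 CPM in WT, against 71.0 and 69.2 in DD and 65.4 and 73.2 once rDKK3 was added. In the other direction, Itgb1bp1, which binds the tail of Itgb1 and hinders its activation, had 83.6 and 67.6 CPM in WT and 48.8 to 65.3 in the null libraries. Tln1 and Parva (8399 and 13487 bases of exon) fall in the longest class of exon length. There, 69.8% of all genes were higher in DD than in WT, and 73.9% in DD + rDKK3 than in WT. Itgb1bp1 (5415 bases) falls in the class below, with 61.5% higher in DD. How much length contributed to these partners was not tested.

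Of 7 hemidesmosome and tetraspanin genes, 6 were tested and 0 called. The keratin linkers Plec and Dst were higher in all 4 null libraries, with Plec at 35.3 and 59.9 CPM in WT against 67.6 to 78.6, and Dst at 11.5 and 21.5 against 23.6 to 28.8. The 4 tetraspanins were lower in both DD and both DD + rDKK3 libraries than in WT. Of all genes tested, 19.7% were likewise lower without overlap in DD and 27.1% in DD + rDKK3, each against WT. Exon length splits this list the same way. Plec and Dst (17516 and 35625 bases) fall in the longest class, where 69.8% of genes were higher in DD than in WT. Cd9 and Cd81 (1310 and 1852 bases) fall in the shortest class, with 32.3% higher. Cd82 and Cd151 (2248 and 4647 bases) fall in the next classes up, with 42.3% and 52.4%. The part of length here was not tested. Cd151, the tetraspanin that binds laminin-binding integrins most tightly, had 276 and 209.5 CPM in WT and 168 to 192 in the null libraries, and Cd9 had 136 and 129 against 75.8 to 118. Against WT, DD + rDKK3 gave -0.77 ± 0.20 for Cd9 and -0.50 ± 0.18 for Cd151 (edgeR adjusted p = 0.322 for both).

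Of 15 other basement membrane genes, 13 were tested and 0 called. Nidogen (Nid1), which links laminin to collagen IV, had 11.1 and 17.4 CPM in the WT pair, 21.5 and 37.3 in the DD pair and 22.3 and 32.6 in the pair given rDKK3, with 1.03 ± 0.33 in DD against WT (edgeR adjusted p = 0.586). The collagen IV gene Col4a2 had 52.5 and 79.7 CPM in WT libraries, 87.7 and 198 in DD libraries and 90.4 and 211 in DD + rDKK3 libraries, again highest in the 2 libraries with high fibroblast markers. Bcam, a Lama5 receptor that is no integrin, had the smallest p of this list in the other direction, with 38.2 and 41.0 CPM in WT, against 30.4 and 27.6 in DD and 26.7 and 20.4 once rDKK3 was added. DD + rDKK3 against WT gave -0.75 ± 0.17 (edgeR adjusted p = 0.322). Ntn4, a netrin that binds laminin gamma chains, had 14.7 and 12.8 CPM in the WT pair, 11.5 and 11.7 in the DD pair and 16.3 and 18.6 in the pair given rDKK3, higher with rDKK3 by 0.59 ± 0.18 (edgeR adjusted p = 1).

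Of 10 soluble or matrix ligands of integrins, 9 were tested and 0 called. Ccn2, a matricellular ligand, had 31.9 and 36.9 CPM in WT libraries, 63.9 and 52.6 in DD libraries and 44.2 and 41.3 in DD + rDKK3 libraries, with no overlap between any 2 groups. DD against WT gave 0.76 ± 0.16 (edgeR adjusted p = 0.442) and DD + rDKK3 against DD -0.45 ± 0.16 (edgeR adjusted p = 1). Vitronectin (Vtn), a ligand of Itgav pairs, had 4.71 and 4.84 CPM in WT, against 2.79 and 1.82 in DD and 5.75 and 3.22 once rDKK3 was added. Both DD libraries were below the other 4, with a log2 fold change of -1.04 ± 0.37 for DD against WT (edgeR adjusted p = 0.586) and 0.95 ± 0.37 for DD + rDKK3 against DD (edgeR adjusted p = 1). Vtn had 59 and 31 counts in DD. For Ccn2 and Vtn alike, both comparisons share the DD libraries, so their opposite signs are not independent. Mfge8, another ligand of Itgav pairs, had 167 and 212 CPM in WT and 101 to 162 in the null libraries. The largest changes of the list were those of Tnc, with 2.85 and 1.68 CPM in WT, 1.61 and 26.3 in DD and 4.96 and 34.9 with rDKK3. Its log2 fold change against WT was 2.63 ± 1.32 in DD (edgeR adjusted p = 0.586) and 3.16 ± 1.32 in DD + rDKK3 (edgeR adjusted p = 0.323). Both values rest largely on DD 2 and DD + rDKK3 2, and DD 1 was below both WT libraries.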

How the data were processed

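Bulk RNA-seq of 6 acinar cultures was available as 1 table of raw counts per gene, which the authors deposited without normalisation. Per the study's methods, strand-specific paired-end reads were mapped with STAR (2.7.9a in the submitters' processing notes) to GRCm39 with the basic GENCODE M32 annotation, counted over exons in union mode and summed per gene. Whether pairs that touch more than 1 exon were dropped is not given in the sources used here, and levels per length of genes with many or overlapping exons may be understated. Of Itga3 and Itga6, 39.5% and 43.0% of exon bases lie under more than 1 exon. Exon lengths came from the later GENCODE M39 annotation.

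From the 57045 rows, 92 spike-in rows with a total of 0 were left out. Groups came from sample titles. Genes were kept by filterByExpr (minimum count 10, minimum total 15) and tested with edgeR 4.0.16 (R 4.3.3) by the quasi-likelihood test over all 6 libraries, TMM scaling and group as the only term, two-sided, with Benjamini-Hochberg adjustment over 14738 genes and calls at an adjusted p under 0.05. The standard error is the log2 fold change divided by the root of F. Replicates in no group matched within counting noise (chi-square per degree of freedom 21.5 to 61.1). DESeq2 1.42.0, limma-voom (limma 3.58.1), other scalings, no filter, replicate blocks and left-out libraries were alternatives. The steps were tested on simulated counts.

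Values are printed for members with an unadjusted p under 0.05 in a comparison or, where fewer than 5 had one, the 5 smallest, and for up to 2 genes per direction of each partner list. Members and lists were chosen with earlier results of these data known, so counts over them are descriptions. The result of 1 member is not reported here, though counts and medians include it.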

Additional observations from a re-analysis of the deposited data

How the results depend on the processing

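No member was called by edgeR in any comparison, and that held under another scaling (DESeq2 size factors or library size alone), limma-voom, a fit of only the 2 groups compared and each library left out in turn. Without the low-count filter, 4 members were called in DD against WT (Lamc1, Lama2, Itga3 and Itga5, among 528 genes) and 5 in DD + rDKK3 against WT (Lamc1, Itga11, Lama2, Itgb4 and Itga5, among 788), with 73 genes in DD + rDKK3 against DD. DESeq2 called 77 genes in DD against WT, 5 for rDKK3 added to DD, and 61 in DD + rDKK3 against WT with 1 member (Itgb4), where limma-voom called 3 genes. Leaving out DD 2 and DD + rDKK3 2 gave 14 genes in DD against WT and 0 members. The cause of these differences was not tested.

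The members' median for DD against WT was 0.36 and, with library size alone as the scaling, 0.54, when the median of all genes also moved, to 0.22. For DD + rDKK3 against WT it was 0.26, 0.43 with library size alone and 0.091 with the exon-length class median subtracted. The median of DD + rDKK3 against DD, 0.0047, turned to -0.033 with library size alone, -0.0032 without the filter, -0.00049 with DESeq2, -0.069 without DD 2 and DD + rDKK3 2, and -0.029 with the length class median subtracted. With 1 library left out, where the lone library of a group is taken to vary as the others do, the medians ran from 0.29 to 0.52, from -0.22 to 0.075 and from 0.18 to 0.50 for DD against WT, for rDKK3 added to DD and for DD + rDKK3 against WT, with the highest of the first and last both without WT 2. The counts of all genes called ran from 2 to 6, stayed at 0 and ran from 2 to 9. In DD against WT, 2 genes were called without WT 1, WT 2 or DD 1. In DD + rDKK3 against WT, 2 were called without WT 1 or WT 2 and 3 without DD + rDKK3 1.

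The sample titles give the untreated and the treated null cultures the same names, DD1 and DD2. Whether cultures of the same name came from the same animal is not given, and the main test treated them as unpaired. Deviations of same-numbered libraries from their group means correlated over all genes at 0.65 between DD and DD + rDKK3, -0.39 between DD and WT and -0.25 between WT and DD + rDKK3. Over the 26 members tested these correlations were 0.85, -0.22 and -0.38. With the replicate block, 0 members and 7, 0 and 5 genes were called. A replicate block within the Dkk3-null libraries alone, added after the data were seen, called 1 member in DD against WT (Itga5, 1.30, adjusted p = 0.0206, among 65 genes) and 2 in DD + rDKK3 against WT (Lama2, 2.62, adjusted p = 0.0177, and Itga5, 1.39, adjusted p = 0.0145, among 77 genes). This block removes the replicate gap shared by both null groups from the spread that null libraries are weighed by against WT. The 6 members with at most 14 counts in any library were left out of the tests at this depth.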
